A study of Mus musculus with 19 samples.

Results

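Collagen genes were followed in RNA from the CA1 region of the mouse hippocampus. The members were chosen by name, as every gene whose mouse symbol has the form Col, number, a, number (44 genes in the annotation), and by abundance, as those that reached 5 reads in 50% or more of the 19 count files. A total of 43 of the 44 met both conditions, among 19286 genes tested and 48709 genes counted. Col10a1, a short-chain collagen of growth cartilage, was the exception, with 1 to 5 reads in each library. Just inside the limit stood Col17a1 with 0 to 12 reads, of which 10 libraries reached 5 reads, followed by Col6a6 with 8 to 39 reads and Col4a3 with 16 to 37 reads.

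The study set out to learn what changes in CA1 of old mice when 3 microRNAs are inhibited. All mice were male C57B/6J animals. All received lipid nanoparticles with oligonucleotides, injected into the dorsal hippocampus on both sides, so the controls carried the injection as well. The study trained mice injected in this way in a water maze, and its paper does not state whether the sequenced mice were among them. Young mice (3 months, n = 6) and old control mice (16.5 months, n = 6) received control oligonucleotides, whereas old anti-miR-mix mice (16.5 months, n = 7) received the anti-miR-mix, inhibitors of miR-148a-3p, of miR-146a-5p and of miR-181a-5p. CA1 was dissected as whole tissue that mixes neurons, glia and vessels, so fewer cells of a type and less RNA per cell cannot be told apart. Because the words anti-miR-mix also open the titles of mice that did not receive it, groups were read from the sample descriptions.

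Collagens are proteins of the extracellular matrix in which chains wind around each other into a triple helix. Fibrillar collagens assemble into load-bearing fibers, network collagens such as type IV form the sheet of basement membranes under vessels and around the brain surface, beaded-filament collagens (type VI) link cells to the matrix, fibril-associated collagens decorate fibers, and transmembrane collagens are anchored in the cell membrane. Brain tissue holds little fibrillar collagen, most of it in the meninges and the walls of larger vessels, while the basement membrane of capillaries runs through all of it.

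Depth was 26653511 to 38908947 assigned reads per library. Old control libraries 5 and 6 resembled each other more closely than any other pair of a group. Their counts differed from each other by a chi-square of 2.18 per degree of freedom over 12780 genes, against 6.1 for the next closest pair. This exceeds sampling noise alone, but it cannot tell separate animals from repeated preparations of a single animal. The labels number them apart, and they were kept as separate libraries. Markers of CA1 pyramidal cells, pan-neuronal genes and glial genes were read in every library, none of these marker genes being at 0, and the summed level of the CA1 markers (6 genes) was between 698 and 1000 CPM (reads scaled to a common library total). The results on single genes below are given in log2 CPM, which compares 1 gene across libraries, and in RPKM, the same scaled reads per kilobase of exon, which compares genes. The exon length is the union of all annotated exons of a gene and can exceed that of its message. Ranks and sums in RPKM therefore depend in part on the annotation.

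The treatment is shown here by its sequences, because it defines the groups that are compared. The mature microRNAs (RefSeq, GRCm38.p6) are written from 5′ to 3′ with the seed, bases 2 to 8, in capitals. Each of the 3 has a seed of its own.
miR-146a-5p: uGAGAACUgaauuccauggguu
miR-148a-3p: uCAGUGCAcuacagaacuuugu
miR-181a-5p: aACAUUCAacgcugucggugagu
The first is encoded at chr11:43374435-43374456 (minus strand), the second at chr6:51269829-51269850 (minus strand) and the third at chr1:137966468-137966490 and chr2:38852741-38852763 (plus strand). The inhibitors, as the study lists them, are antisense to these and are written with the bases that pair with the seed in capitals.
inhibitor of miR-146a-5p: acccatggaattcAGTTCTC
inhibitor of miR-148a-3p: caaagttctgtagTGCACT
inhibitor of miR-181a-5p: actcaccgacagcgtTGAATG
The inhibitor of miR-146a-5p is complementary to bases 2 to 21 of its target and so to all 7 seed bases. The inhibitors of miR-148a-3p and of miR-181a-5p begin to pair at base 3, leaving 6 seed bases covered.

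The most abundant collagen messages of CA1 were those of the basement membrane. Per kilobase, Col4a2 came first at 12.9 RPKM (range over 19 libraries 10.8 to 14.9) and Col4a1 second at 8.88 RPKM (7.65 to 10.2). These 2 genes encode the chains of the type IV network found in every basement membrane. They were followed by Col6a1 at 7.71 RPKM, a chain of the beaded filaments, by the fibrillar Col11a2 at 6.94 RPKM and by the transmembrane Col25a1 at 5.89 RPKM, a collagen known from neurons and from amyloid plaques. The ranges of Col6a1 (5.99 to 9.75 RPKM), Col11a2 (5.38 to 8.31 RPKM) and Col25a1 (4.52 to 7.72 RPKM) overlapped with each other and with that of Col4a1, so the order from the second rank on does not hold beyond the spread between libraries.

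The classic fiber collagens of connective tissue were scarce. Col1a1 stood at 1.06 RPKM, Col1a2 at 0.847 RPKM and Col3a1 at 0.349 RPKM, ranks 18, 21 and 31 of the 43. The exon lengths used were 6563, 12426 and 9816 bases. The most abundant fibril-associated member was Col19a1 (4.86 RPKM), which is made by interneurons and contributes to synapses. The leading short-chain member was Col8a1 (0.218 RPKM) and the leading member of the anchoring and remaining types was Col7a1 (0.605 RPKM), the collagen of anchoring fibrils. Col17a1, a hemidesmosome collagen of skin, was lowest at 0.0256 RPKM.

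**Figure D1:**
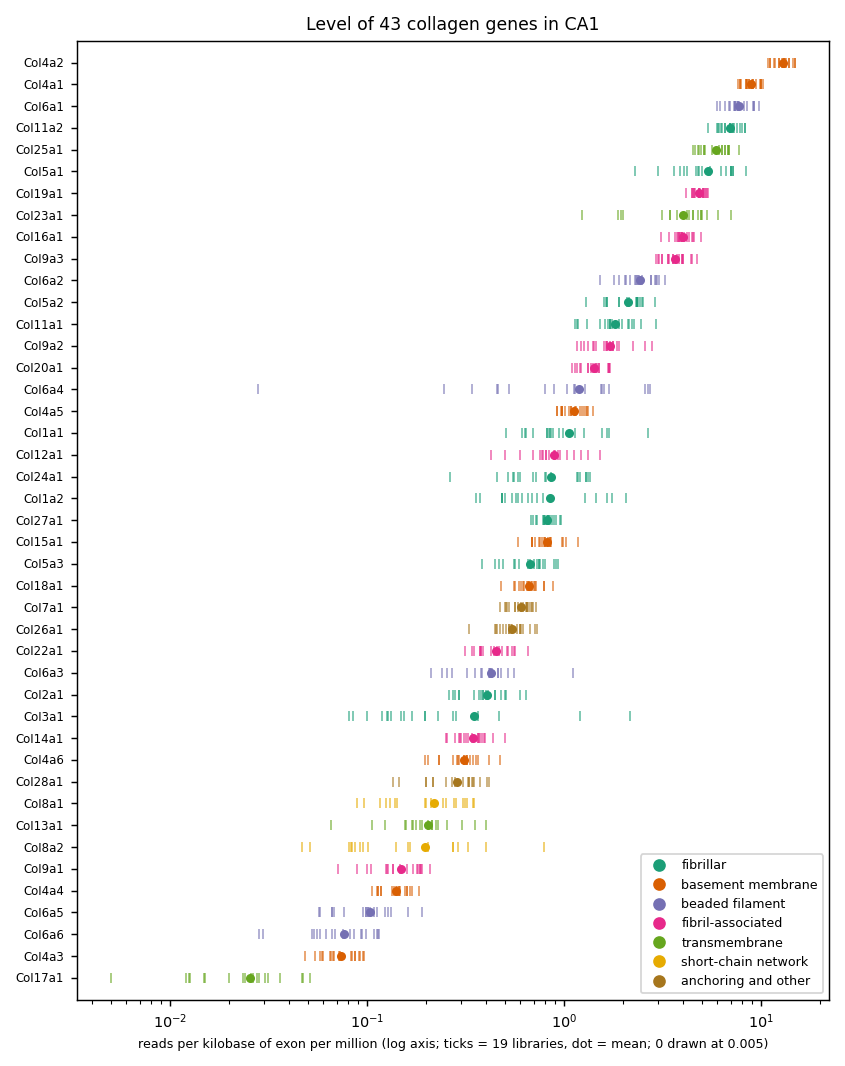
Level of the 43 collagen genes, in RPKM on a log axis. Each tick is 1 of 19 libraries, the dot is the mean and color gives the class. Col4a2 and Col4a1 lead, while Col1a1, Col1a2 and Col3a1 lie near or below 1 and spread more widely than the type IV pair.

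Summed over a class, type IV and the other basement membrane collagens (8 genes) took 24.1 ± 1.87 RPKM in the 6 young libraries (mean ± SD), 25.3 ± 1.49 RPKM in the 6 old controls and 25.2 ± 2.11 RPKM with the anti-miR-mix (7 libraries). The 3 ranges overlapped. Fibrillar collagens (11 genes) summed to 22.7 ± 1.05 RPKM in young (range 21.1 to 24.1), 19.1 ± 1.17 RPKM in old control (17.7 to 20.7) and 21.9 ± 3.17 RPKM in old anti-miR-mix libraries (18.3 to 26.7). The young and old control ranges did not overlap, and the old anti-miR-mix range covered parts of both. These fibrillar sums are dominated by Col11a2 and Col5a1, and all class sums are given without a test. Col11a2 averaged 6.89 RPKM in young and 6.93 RPKM in old control libraries, and Col5a1 averaged 6.68 and 4.39 RPKM. Col5a1 by itself did not reach an adjusted p under 0.05 with age (log2 fold change −0.605 ± 0.218, SE, edgeR quasi-likelihood test, adjusted p = 0.14).

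Some members were steady across all libraries and others varied widely. Col19a1 was the steadiest, with an SD of 0.10 in log2 CPM over all 19 libraries, followed by Col4a1 with 0.13 and by Col4a2 and Col27a1 with 0.14 each. At the other end Col6a4 had an SD of 1.49, Col3a1 of 1.21, Col8a2 of 0.98 and Col1a2 of 0.77. Among all genes tested, the SD of Col6a4 lay at percentile 99.9 and that of Col19a1 at percentile 31.5. In reads, Col6a4 held from 8 to 700 and Col3a1 from 21 to 704 per library. Col6a4 was high and low within each group, at 1.57 to 3.86 log2 CPM in young, 2.19 to 4.54 in old control and −1.73 to 4.51 in old anti-miR-mix libraries.

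**Figure D2:**
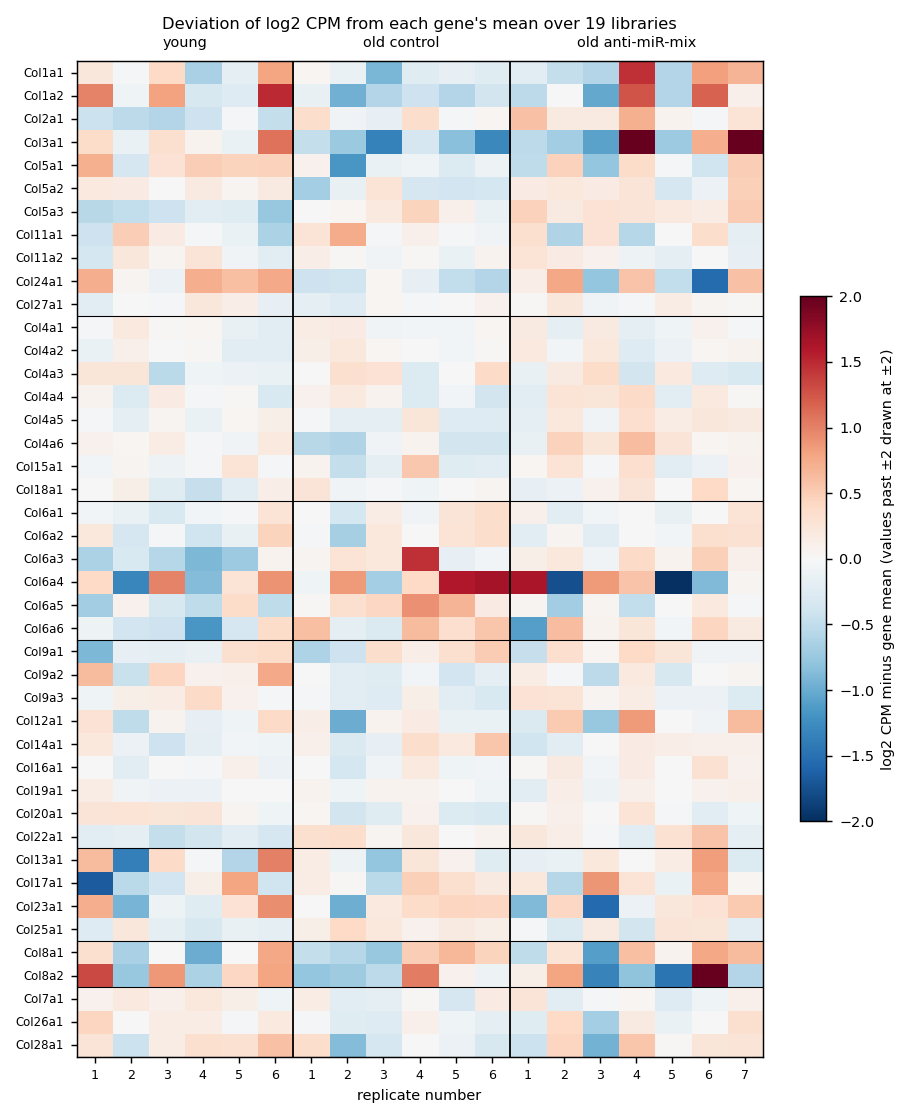
Deviation of log2 CPM from the mean of each gene over the 19 libraries, 1 column per library and 1 row per collagen gene, ordered by class. The rows of Col4a1, Col4a2 and Col19a1 are nearly flat, whereas Col3a1, Col1a1 and Col1a2 are raised in old anti-miR-mix libraries 4 and 6 and in young library 6. Col1a1 and Col3a1 are also raised in old anti-miR-mix library 7, and Col1a2 in young libraries 1 and 3.

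Age was examined by comparing old control with young mice. Collagen genes did not move as one: 22 of 43 had a positive and 21 a negative log2 fold change, the median being 0 against 0.01 over all genes tested. A total of 3 members rose with age past the threshold (edgeR quasi-likelihood test, adjusted p under 0.05), namely Col5a3, Col22a1 and Col6a3, and 0 fell. Other fits called members lower, Col20a1 and Col9a2 with DESeq2 (log2 fold changes −0.34 and −0.50) and Col1a2, Col24a1 and Col3a1 with only the 2 groups in the fit. These fits also called more genes over all, 914 with DESeq2 and 772 with only the 2 groups, against 514 in the main fit. The 3 higher members are 6.98% of the 43, where 1.32% of all tested genes were called higher and 1.34% lower. At an unadjusted p under 0.05, 7 members were higher and 8 lower (16.3% and 18.6%), against 9.14% and 8.92% of all genes. The log2 CPM ranges of the groups did not overlap for 3 members (Col5a3 and Col22a1 higher, Col3a1 lower), and for 2.54% of all genes.

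Col5a3 encodes a minor chain of type V collagen, which sits within fibers and sets their diameter. Its lowest, median and highest log2 CPM were 1.42, 1.73 and 1.96 in young libraries, 2.04, 2.25 and 2.62 in old control and 2.33, 2.43 and 2.68 in old anti-miR-mix libraries. Every old library lay above every young library. The log2 fold change of old control against young was 0.56 ± 0.11 (SE, edgeR adjusted p = 0.00708), and the difference ran from 0.48 to 0.80 within the 3 processing groups that hold both groups. A processing group is 1 of 4 sets of libraries marked by a whole number that can be read from the deposited log2 table. The sources used here do not say what the number stands for. Each set holds at most 3 libraries of any 1 group, so differences within processing groups rest on few libraries. The age difference of Col5a3 passed the threshold under all 31 alternative settings, which include leaving out each library in turn. Among the members, Col5a3 had the lowest p with age.

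Col22a1 encodes a fibril-associated collagen known from tissue junctions such as the end of muscle fibers at tendons. Its lowest, median and highest values were 1.56, 1.76 and 1.84 log2 CPM in young, 2.05, 2.19 and 2.39 in old control and 1.81, 2.17 and 2.61 in old anti-miR-mix libraries. Young and old control did not overlap, whereas old anti-miR-mix library 4 (1.81) fell into the young range. The difference between old control and young was 0.49 ± 0.12 (SE, log2, edgeR adjusted p = 0.0294) and was 0.31 to 0.57 within processing groups. It lost the threshold when any of 6 libraries was left out, namely young 3, 4 and 6 and old control 1, 2 and 4, with log2 fold changes between 0.45 and 0.48 and adjusted p between 0.0515 and 0.0704. With the processing group as a factor, it was 0.42 (adjusted p = 0.073). Gm16308 overlaps its exons on the other strand, and reads of the pair cannot be told apart where counting ignores strand.

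Col6a3 encodes the long chain of type VI collagen, whose cleaved end acts as a signaling peptide. Its values were 1.37, 1.68 and 2.35 (lowest, median, highest) log2 CPM in young, 2.11, 2.41 and 3.73 in old control and 2.21, 2.39 and 2.75 in old anti-miR-mix libraries. Old control library 4 stood far above all others, and the young range reached into the old control range through young library 6. The difference of old control against young was 0.91 ± 0.23 (SE, log2, edgeR adjusted p = 0.0384), and without old control library 4 it was 0.56 (adjusted p = 0.0525). It was positive in each of 3 processing groups, from 0.22 to 1.14, and passed the threshold under 19 of 31 alternatives. With the processing group as a factor, it did not pass (0.80, adjusted p = 0.0882). Leaving out young 1, 3, 4 or 5 or old control 2 or 3 also raised its adjusted p above the threshold, with differences of 0.83 to 0.94 and adjusted p between 0.0566 and 0.101. Its partner chains did not pass. Col6a1 differed by 0.11 ± 0.10 and Col6a2 by 0.07 ± 0.15 (SE, log2).

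**Figure D3:**
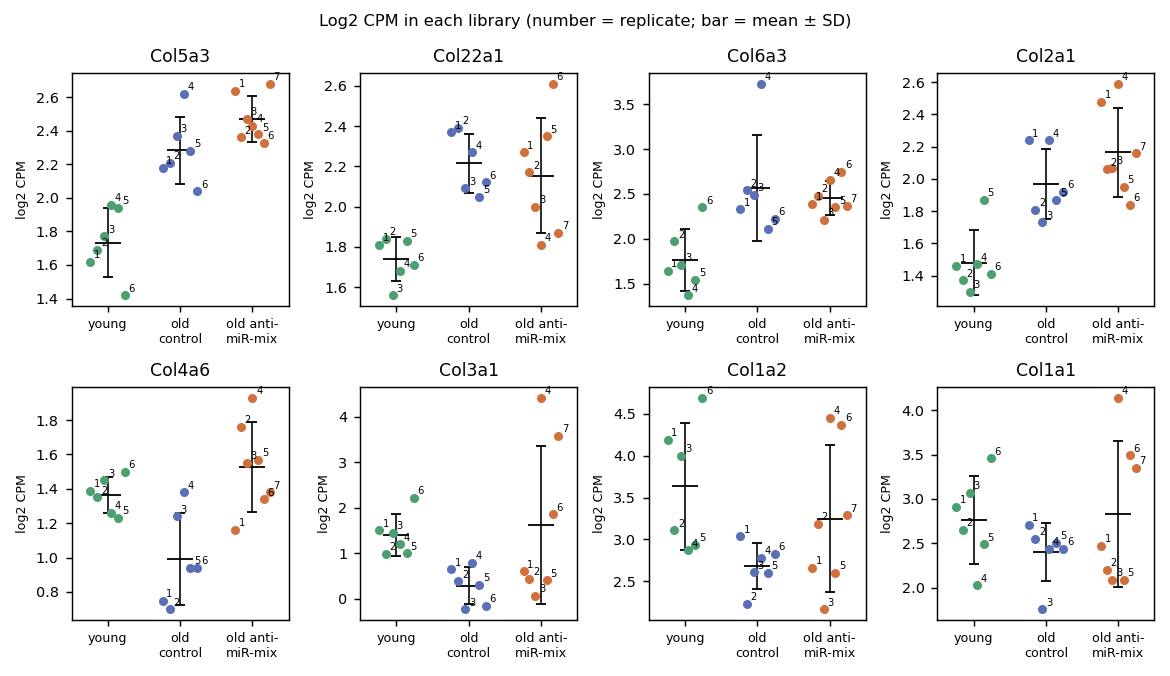
Log2 CPM of 8 collagen genes in every library, by group. Numbers are replicate numbers and bars are the mean ± SD. Every old library lies above every young library for Col5a3, Col6a3 is high in old control library 4, and Col3a1 is high in old anti-miR-mix libraries 4 and 7.

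The members with the next lowest p did not pass. Col2a1, the main collagen of cartilage, held 1.30, 1.44 and 1.87 log2 CPM (lowest, median, highest) in young and 1.73, 1.89 and 2.24 in old control libraries, overlapping through young library 5 (0.50 ± 0.14, SE, edgeR adjusted p = 0.0526). Col20a1, a fibril-associated member, held 2.79, 3.12 and 3.15 log2 CPM in young and 2.51, 2.61 and 2.96 in old control libraries (−0.34 ± 0.09, SE, adjusted p = 0.0542). The young and old control ranges of Col20a1 overlapped through young libraries 5 and 6 and old control libraries 1 and 4, and each of the 2 genes passed the threshold under 9 of 31 alternatives.

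The most abundant member of each class did not pass with age. Col4a1 held 5.84, 6.05 and 6.24 log2 CPM (lowest, median, highest) in young and 5.98, 6.04 and 6.21 in old control libraries, and Col4a2 held 6.20, 6.34 and 6.51 against 6.35, 6.44 and 6.62. Their log2 fold changes were 0.05 ± 0.07 and 0.12 ± 0.07 (SE, edgeR adjusted p = 0.793 and 0.381). The old control range of Col4a1 lay inside the young range, and the ranges of Col4a2 overlapped between 6.35 and 6.51. Col6a1 held 4.76, 5.02 and 5.34 log2 CPM in young and 4.72, 5.14 and 5.42 in old control libraries, and Col6a2 3.92, 4.23 and 4.76 against 3.66, 4.42 and 4.67. Col11a2, a chain of cartilage fibrils, held 5.21, 5.56 and 5.83 against 5.43, 5.59 and 5.70. None of these ranges separated the groups. Col25a1 was the leader with the largest difference, 5.91, 6.06 and 6.46 log2 CPM in young against 6.32, 6.39 and 6.64 in old control libraries, overlapping through young library 2 (0.33 ± 0.11, SE, adjusted p = 0.094). Col19a1 (4.94 to 5.21 against 4.97 to 5.14 log2 CPM), Col7a1 (2.55 to 2.85 against 2.30 to 2.81) and Col8a1 (−0.29 to 1.47 against −0.05 to 1.37) overlapped between young and old control.

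The classes leaned different ways with age. Of the 6 beaded-filament genes all had positive log2 fold changes, from 0.07 to 0.91 with a median of 0.62, of which 1 was called (16.7%). Among them Col6a5 and Col6a6 averaged only 30.4 and 22.2 reads, and Col6a4 differed by 0.575 ± 0.572 (SE, log2). The abundant Col6a1 and Col6a2 differed by 0.11 and 0.07. The class sums overlapped, at 9.66 to 14.7 RPKM in young and 9.72 to 16.1 RPKM in old control libraries. Of the 11 fibrillar genes 7 had negative values, with a median of −0.37 and a range from −1.15 to 0.56, and the 1 that was called was higher. The 8 basement membrane genes stayed between −0.37 and 0.20 with a median of 0.02, and 0 were called. Type VI genes on chromosome 9 (Col6a4, Col6a5 and Col6a6) lie next to each other and are paralogs, so reads of 50 bases may be exchanged among them. Col6a4 also overlaps exons of a pair of unnamed genes (Gm47575 and Gm36993) on the other strand, with the same limit.

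Col1a1, Col1a2 and Col3a1 are the genes of types I and III, the fibers of skin, vessel walls and scars. Col3a1 held 0.99, 1.33 and 2.22 (lowest, median, highest) log2 CPM in young and −0.23, 0.34 and 0.79 in old control libraries, so that every young library lay above every old control library. Even so, its log2 fold change of −1.15 ± 0.69 did not pass in the fit of all 3 groups (SE, edgeR adjusted p = 0.395), in which the spread of the old anti-miR-mix libraries enters the shared error. With only the 2 groups in the fit, the same difference had an SE of 0.23 and an adjusted p of 0.0144. Col24a1, a minor fibrillar collagen, held 2.47 to 3.35 log2 CPM in young and 2.00 to 2.63 in old control libraries and differed by −0.83 ± 0.28 (SE, adjusted p = 0.115), or by −0.84 with only the 2 groups in the fit (adjusted p = 0.00859). Col1a2, at 2.87 to 4.69 log2 CPM in young and 2.23 to 3.04 in old control libraries, differed by −1.1 ± 0.37 (SE, adjusted p = 0.115), and Col1a1 by −0.41 ± 0.32 (SE, adjusted p = 0.547).

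Most fibroblast markers leaned the same way, but their sum did not separate the groups. The 11 meningeal fibroblast markers, 0 of them at 0 reads in any library, had a median age difference of −0.66 (log2), 1 of the 11 being positive, and 0 were called. Their summed level was 59.8 to 281 CPM in young (mean 160) and 111 to 171 CPM in old control libraries (mean 151). The highest was young library 6, which also held the highest young values of Col1a1, Col1a2 and Col3a1. Dcn was the 1 positive marker (0.56 ± 0.27, SE, log2). In a split made after the values were seen, the other 10 summed to 41 to 168 CPM in young and 42.4 to 72.9 CPM in old control libraries. Pericyte and smooth muscle markers (10 genes) summed to 212 to 254 CPM in young and 214 to 224 CPM in old control libraries. The 8 choroid plexus markers tested all had positive age differences (median 0.95, 0 called), with sums of 18 to 30.6 CPM in young and 21.9 to 89.1 CPM in old control libraries, where libraries 5 and 6 held 85 and 89.1 CPM. Of 5 oligodendrocyte markers 3 were called lower with age (median −0.43), with sums of 6690 to 10600 CPM in young and 5910 to 7050 CPM in old control libraries. The part of these cells in the age differences of collagen genes was not tested.

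Chains that join in 1 trimer, or in 1 fiber, can be compared by their ratio within a library, which does not depend on the library total. The ratio of Col4a2 to Col4a1, per kilobase, was nearly constant: 0.53 ± 0.07 on the log2 scale over the 19 libraries (SD, range 0.43 to 0.66). These genes lie head to head on chromosome 8, their annotated starts 21 bases apart. The log2 ratio of Col1a2 to Col1a1, the chains of type I, was −0.41 ± 0.44 (SD, range −1.23 to 0.36). The level of each ratio depends on the exon lengths used, while its spread between libraries does not. Type III collagen is a homotrimer of Col3a1 chains that shares fibers with type I, and the log2 ratio of Col3a1 to Col1a2 was −1.72 ± 0.85 (SD), lying between −2.66 and −1.33 in 17 libraries and rising to 0.31 and 0.63 in old anti-miR-mix libraries 4 and 7. The ratio of Col6a3 to Col6a1 averaged −4.71 ± 0.29 over young, −4.00 ± 0.74 over old control and −4.06 ± 0.25 over old anti-miR-mix libraries (mean ± SD, n = 6, 6 and 7), the young range ending at −4.41 and the old anti-miR-mix range starting at −4.42.

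**Figure D4:**
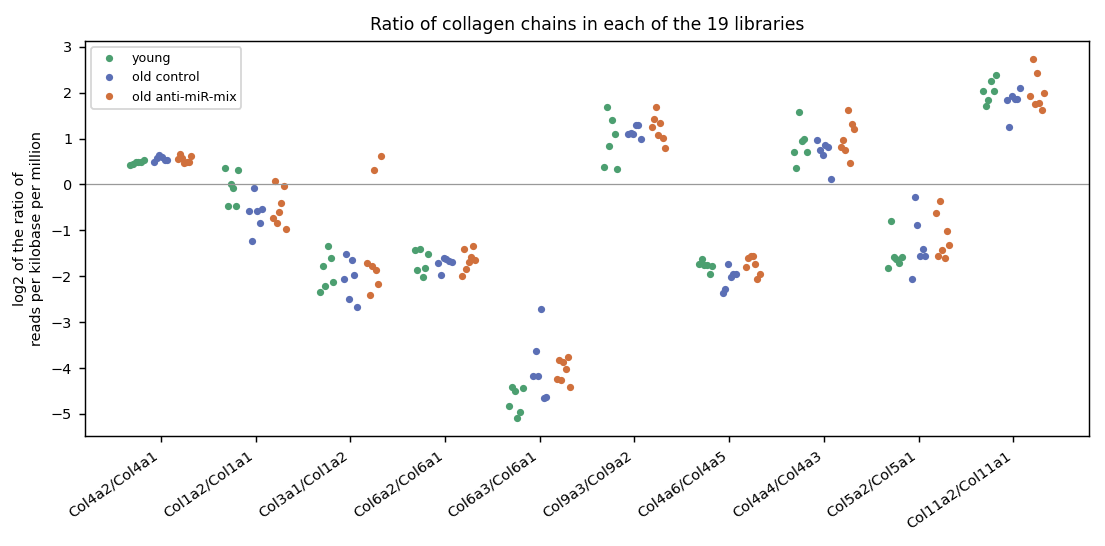
Log2 ratio of 2 collagen chains, corrected for exon length, in each of the 19 libraries, by group. The ratio of Col4a2 to Col4a1 varies between 0.43 and 0.66, and that of Col3a1 to Col1a2 leaves its usual range in 2 old anti-miR-mix libraries.

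The windows from 250 bases before to 50 bases after the start of a gene (RefSeq, GRCm38.p6) are shown for 3 of these genes, because they belong to the pair with the steadiest ratio and to a pair with a variable one. Capitals mark the CCAAT box (letters CCAAT), the GC box (letters GGGCGG) and the TATA box (letters TATAAA) on either strand, and no 2 of these matches overlap in the windows shown. The Col4a2 window, chr8:11312555-11312854 (plus strand), holds the annotated starts of both Col4a2 (11312805) and Col4a1 (11312826, minus strand).
Col4a2: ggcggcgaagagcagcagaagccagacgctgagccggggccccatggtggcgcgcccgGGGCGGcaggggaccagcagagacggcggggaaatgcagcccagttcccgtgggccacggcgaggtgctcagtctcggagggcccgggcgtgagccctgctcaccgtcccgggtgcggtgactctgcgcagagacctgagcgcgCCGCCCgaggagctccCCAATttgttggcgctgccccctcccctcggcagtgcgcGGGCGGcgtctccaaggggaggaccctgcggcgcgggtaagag
Col1a2, chr6:4505368-4505667 (plus strand): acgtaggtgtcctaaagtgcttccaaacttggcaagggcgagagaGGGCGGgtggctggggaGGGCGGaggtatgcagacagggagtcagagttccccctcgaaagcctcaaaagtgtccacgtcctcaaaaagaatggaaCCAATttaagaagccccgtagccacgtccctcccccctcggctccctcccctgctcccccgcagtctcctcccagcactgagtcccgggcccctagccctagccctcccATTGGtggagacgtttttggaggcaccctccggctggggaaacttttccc
Col3a1, chr1:45311288-45311587 (plus strand): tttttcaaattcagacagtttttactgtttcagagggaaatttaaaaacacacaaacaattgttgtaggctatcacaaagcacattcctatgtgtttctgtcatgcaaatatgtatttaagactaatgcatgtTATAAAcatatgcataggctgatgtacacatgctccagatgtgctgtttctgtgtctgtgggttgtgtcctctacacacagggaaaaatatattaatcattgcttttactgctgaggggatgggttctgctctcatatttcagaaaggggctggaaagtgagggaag
The Col4a2 window holds 1 CCAAT and 3 GGGCGG and consists of 73.7% G and C. Col1a2 holds 2 CCAAT and 2 GGGCGG with 61.0% G and C, and the Col3a1 window has 1 TATAAA with 37.7% G and C. Of 37 windows for 34 collagen genes, 62.2% held GGGCGG, 35.1% CCAAT and 10.8% TATAAA, against 35.7%, 37.4% and 13.6% of all 32851 windows, which include genes not expressed in CA1. A match is a description of the letters only.

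The inhibitors were examined by setting old mice that received the anti-miR-mix against the old controls. No collagen gene passed the threshold: 0 of 43 were called higher and 0 lower (edgeR), where 0.669% of all tested genes were called higher and 0% lower. At an unadjusted p under 0.05, 6 members were higher and 1 lower, which is 14% and 2.33% of the members against 7.16% and 3.35% of all genes. DESeq2 called 2 members, Col3a1 and Col4a6, both higher, and it called 267 genes over all, against 129 in the main fit. The ranges of the groups overlapped for every member, while 0.498% of all genes had ranges without overlap. Of the 43 log2 fold changes 28 were positive, with a median of 0.12 against 0 over all genes.

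Col4a6 came nearest. It encodes a chain of the type IV network of smooth muscle and certain epithelia and shares a start region with Col4a5, 1309 bases apart on the X chromosome. Its lowest, median and highest values were 0.70, 0.94 and 1.38 log2 CPM in old control, 1.16, 1.55 and 1.93 in old anti-miR-mix and 1.23, 1.37 and 1.5 in young libraries. Old control libraries 3 and 4 reached into the old anti-miR-mix range. The difference was 0.55 ± 0.13 (SE, log2, edgeR adjusted p = 0.0516), 0.26 to 0.44 within processing groups, and it crossed the threshold under 7 of 31 alternatives, with adjusted p between 0.0112 and 0.516. Among these, leaving out old control 3 or 4 or old anti-miR-mix 1 or 6 gave 0.58 to 0.64 (adjusted p between 0.017 and 0.045). Col4a5 differed by 0.23 ± 0.09 (SE, adjusted p = 0.361).

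Col3a1 had the largest difference of the members, 2.29 ± 0.64 (SE, log2, edgeR adjusted p = 0.123). Its values in the 7 old anti-miR-mix libraries were 0.60, 0.44, 0.06, 4.42, 0.40, 1.86 and 3.58 log2 CPM in the order of the labels, or 36 to 704 reads. Libraries 1, 2, 3 and 5 lay inside the old control range of −0.23 to 0.79. Libraries 4 and 7 lay above every old control and every young library, and library 6 lay above the old control range and within the young range. Without library 4 the log2 fold change was 1.46 (adjusted p = 0.404) and without library 7 it was 2.04 (adjusted p = 0.205). Within processing groups the difference was positive in 3 of 3, from 0.09 to 1.79, on 1 or 2 libraries of each group. The lowest value rests on old anti-miR-mix library 1 alone and the highest on library 6 alone. Library 7 enters together with library 2, with a difference of 1.73. Library 4 is in processing group 3, which holds 0 old control libraries, and so is left out. Gm47302 overlaps exons of Col3a1 on the same strand.

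The type I genes went with Col3a1 in part. Col1a1 stood at 4.14, 3.49 and 3.35 log2 CPM in old anti-miR-mix libraries 4, 6 and 7, above the highest old control value of 2.71, and at 2.09 to 2.47 in the other four. Col1a2 stood at 4.45 and 4.37 in libraries 4 and 6 and at 3.29 and 3.19 in libraries 7 and 2, against an old control maximum of 3.04. The group differences were 0.62 ± 0.31 for Col1a1 (SE, adjusted p = 0.497) and 0.78 ± 0.36 for Col1a2 (SE, adjusted p = 0.458), both short of the threshold. Against the young maxima (3.46 for Col1a1, 4.69 for Col1a2 and 2.22 for Col3a1), library 4 was higher for Col1a1 and Col3a1, library 7 for Col3a1 alone and library 6 for Col1a1 by a narrow margin.

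The sum of the 11 fibroblast markers was 159, 245 and 129 CPM in old anti-miR-mix libraries 4, 6 and 7 and 99.8 to 143 CPM in the other four, where old control libraries held 111 to 171 CPM. Of the 11 log2 fold changes 10 were positive (median 0.43) and 0 were called. Dcn, a proteoglycan that binds collagen fibers, made up 53.4 to 65.3% of the sum in old control libraries, and it is the marker with the negative value (−0.37 ± 0.26, SE, log2). In a split made after the values were seen, the other 10 markers summed to 42.4 to 72.9 CPM in old control libraries, to 88 and 162 CPM in old anti-miR-mix libraries 4 and 6, to 47 CPM in library 7, to 78.3 CPM in library 2 and to 42.5 to 48.1 CPM in libraries 1, 3 and 5. Of the pair with the highest Col3a1 of the series, library 4 was thus above the old control range of these 10 and library 7 within it. The summed tissue injury markers (7 genes, among them Gfap and Vim of reactive astrocytes) were 797 to 1350 CPM in old anti-miR-mix against 675 to 966 CPM in old control libraries, with library 4 highest at 1350 CPM, library 7 at 1110 CPM and library 6 at 900 CPM. All 7 had positive log2 fold changes (median 0.56) and 0 were called. Of 8 microglia markers 4 were called higher. The part of these cells and of the injection in the collagen values was not tested.

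**Figure D5:**
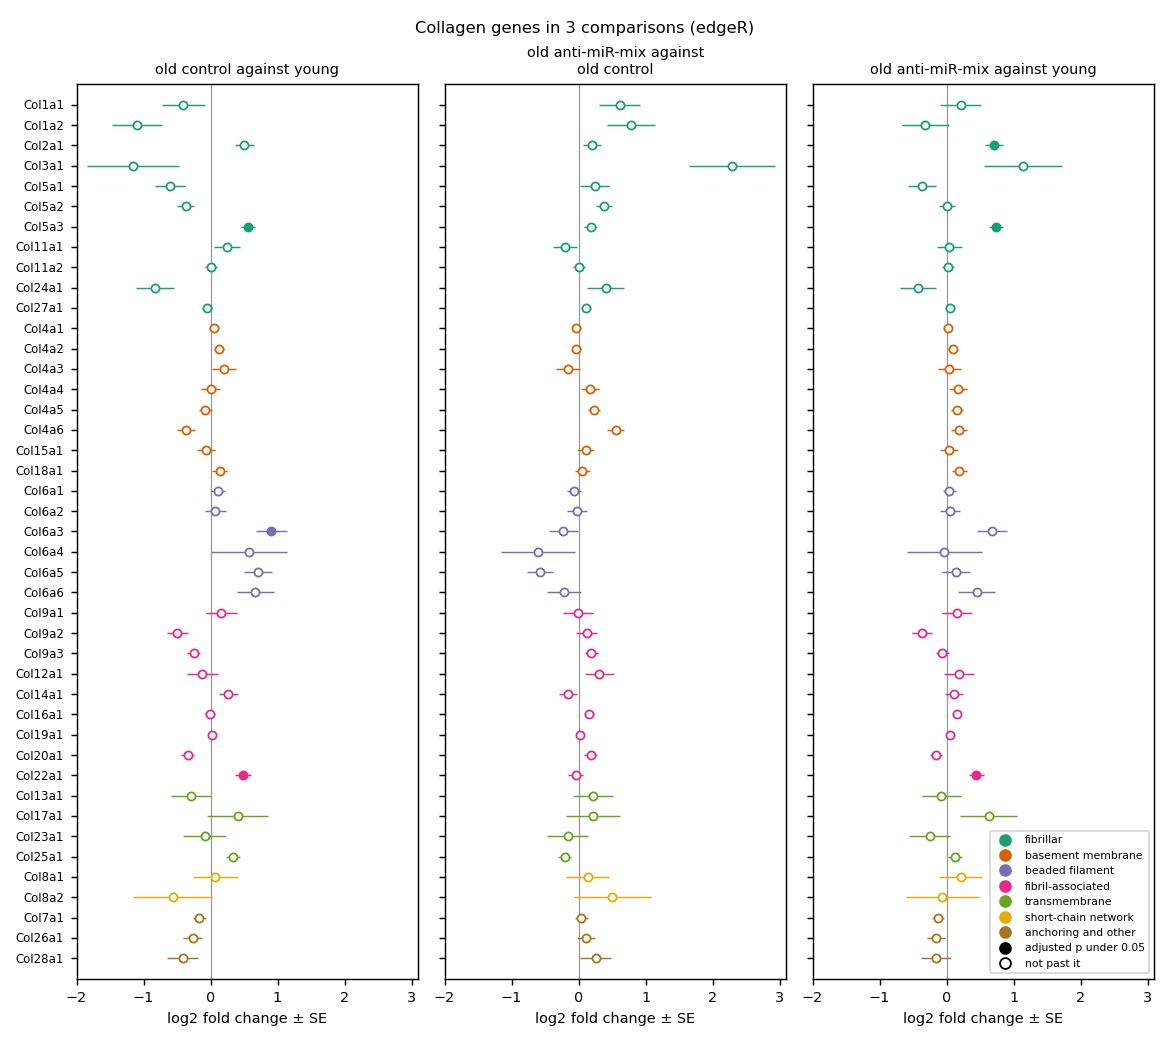
Log2 fold change ± SE of the 43 collagen genes in each comparison, by class. Filled points passed an adjusted p under 0.05 (edgeR). There are 3 filled points in each comparison with young mice and 0 in the comparison of the 2 old groups, where Col3a1 has the largest change (2.29) and a wide error.

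Collagen classes again leaned apart. Of the 11 fibrillar genes 10 had positive log2 fold changes in old anti-miR-mix against old control (median 0.24), and of the 6 beaded-filament genes 0 did (median −0.23, range −0.61 to −0.02). The abundant beaded-filament genes Col6a1 and Col6a2 differed by −0.07 ± 0.10 and −0.02 ± 0.15 (SE, log2). Basement membrane genes had a median of 0.08. The abundant type IV pair was near 0, with Col4a1 at −0.03 ± 0.07 and Col4a2 at −0.04 ± 0.07 (SE, log2). Both comparisons use the old control libraries, so that a low or high value there pushes the age and treatment values in opposite directions, and the mirror image of the class medians is not independent evidence.

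Seed matches for the 3 microRNAs were searched in the 3′UTR of each gene (GENCODE M21, the coding transcript with the longest coding sequence), for 41 members and 15165 genes in all. The letters searched were the reverse complement of the seed, AGTTCTC for miR-146a-5p, TGCACTG for miR-148a-3p and TGAATGT for miR-181a-5p. For miR-146a-5p 12.2% of the members and 11% of all genes held a match, for miR-148a-3p 12.2% and 13.4%, and for miR-181a-5p 19.5% and 16.4%. In all, 14 members had at least 1 match, of which 6 had a positive log2 fold change in old anti-miR-mix against old control (median −0.04), while 20 of the 27 members without a match were positive (median 0.14). Matches are printed for Col5a2, for 3 members that passed the threshold in a comparison and for the abundant Col4a1, with the match in capitals, on the strand of the gene.
Col5a2, miR-148a-3p, chr1:45374471-45374499 (minus strand): accattttgtcTGCACTGgcttaaaaata
Col5a2, miR-181a-5p, chr1:45375251-45375279 (minus strand): gtgcccagtaaTGAATGTtaagactctcc
Col2a1, miR-148a-3p, chr15:97975941-97975969 (minus strand): actccaggatcTGCACTGaatggctgacc
Col22a1, miR-148a-3p, chr15:71796481-71796509 (minus strand): cctatcaaaacTGCACTGtaggatacacg
Col6a3, miR-181a-5p, chr1:90766860-90766884 (minus strand): ataaagtatatTGAATGTgccatga
Col4a1, miR-148a-3p, chr8:11199488-11199516 (minus strand): ttgcaatccagTGCACTGatgtctggggc
Col4a1, miR-181a-5p, chr8:11198994-11199022 (minus strand): catcaggccacTGAATGTgaaacaccagc
Col5a2, the second chain of type V, held matches for miR-148a-3p and miR-181a-5p, as did Col4a1, and differed by 0.38 ± 0.12 (SE, log2, edgeR adjusted p = 0.216) between the old groups, with 3.65, 3.98 and 4.60 log2 CPM (lowest, median, highest) in old control and 3.99, 4.49 and 4.80 in old anti-miR-mix libraries. Col2a1 differed by 0.20 ± 0.13, Col22a1 by −0.04 ± 0.11, Col6a3 by −0.23 ± 0.22 and Col4a1 by −0.03 ± 0.07 (SE, log2). Col5a2 had the highest value of the members with a match. The lowest was that of Col6a5, which held a match for miR-181a-5p and differed by −0.58 ± 0.20 (SE, log2, edgeR adjusted p = 0.254). A match says nothing on whether the microRNA acts there.

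Old anti-miR-mix mice were lastly compared with young mice, to see which age differences stood with the treatment in place. A total of 3 members were higher, Col5a3, Col2a1 and Col22a1 (6.98%), and 0 were lower, where 4.57% of all tested genes were called higher and 1.63% lower. At an unadjusted p under 0.05, 4 members were higher and 1 lower (9.30% and 2.33%), against 11.3% and 8.31% of all genes. For 1 member (2.33%), Col5a3, the ranges did not overlap, against 2.42% of all genes. The share of members called higher is of the order of that of all genes.

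Col5a3 differed by 0.74 ± 0.10 (SE, log2, edgeR adjusted p = 0.000121), and by 0.57 to 1.01 within the 4 processing groups. Col2a1 held 1.84, 2.07 and 2.59 log2 CPM (lowest, median, highest) in old anti-miR-mix against 1.30, 1.44 and 1.87 in young libraries, with young library 5 alone reaching the old range. It differed by 0.71 ± 0.13 (SE, adjusted p = 0.0018), and by 0.20 to 1.02 within processing groups, and like Col5a3 it passed under all 29 alternatives. Col22a1 differed by 0.44 ± 0.11 (SE, adjusted p = 0.0207) and passed under 27 of 29, not without young library 3 (0.41, adjusted p = 0.0518) and not with only the 2 groups in the fit. Neither Col5a3 (0.18 ± 0.10), Col2a1 (0.20 ± 0.13) nor Col22a1 (−0.04 ± 0.11) passed between the 2 old groups.

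Below the threshold stood Col6a3, at 0.68 ± 0.23 (SE, log2, edgeR adjusted p = 0.0797) and Col9a2, a chain of the fibril-associated type IX, at −0.37 ± 0.15 (SE, adjusted p = 0.157). For Col6a3, young library 6 alone reached the old anti-miR-mix range. Col9a2 held 1.94, 2.65 and 3.13 log2 CPM in young and 1.86, 2.37 and 2.57 in old anti-miR-mix libraries, so that the ranges overlapped broadly. The 8 basement membrane genes were all slightly positive, from 0.02 to 0.19, and 0 were called.

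Genes that make, handle or bind collagen were read from a list of 77, of which 74 were tested. With age 0 rose and 4 fell (5.41%), where 1.32% of all genes tested were called higher and 1.34% lower. The 4 are 1 each among folding factors, proteases, receptors and basement membrane proteins. Itga10, a collagen-binding integrin chain, held 2.21, 2.37 and 2.73 log2 CPM (lowest, median, highest) in young and 1.41, 1.60 and 2.04 in old control libraries, without overlap (−0.81 ± 0.12, SE, edgeR adjusted p = 0.000542). Nid1, which ties laminin to type IV collagen, fell by 0.54 on the log2 scale (SE 0.12, adjusted p = 0.0202). Serpinh1, the procollagen chaperone HSP47, held 3.48 to 4.17 in young and 3.34 to 3.48 log2 CPM in old control libraries (−0.46 ± 0.10, SE, adjusted p = 0.0108). Ctsk, a protease that cleaves the triple helix, fell by 0.49 (SE 0.13, adjusted p = 0.0476). The young ranges of all 4 lay above the old control ranges, Serpinh1 by a narrow margin.

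Between the old groups 2 of the 74 rose (2.7%) and 0 fell, where 0.669% of all genes were called higher and 0% lower. These are calls of the main fit, and values of partner genes under other settings are not given here. Over all genes, the 129 calls of the main fit became 9 with the processing group as a factor. Mmp2, a gelatinase that degrades type IV and denatured collagen, held 1.22, 1.55 and 1.73 log2 CPM in old control, 1.82, 2.23 and 2.76 in old anti-miR-mix and 1.45, 1.67 and 1.75 in young libraries. Every old anti-miR-mix library lay above every other library (0.79 ± 0.13, SE, edgeR adjusted p = 0.00773). Lair1, an inhibitory collagen receptor of immune cells that microglia express, rose by 0.35 ± 0.08 (SE, adjusted p = 0.0448) with 3.69, 3.86 and 4.08 in old control and 3.86, 4.27 and 4.35 log2 CPM in old anti-miR-mix libraries. The microglia markers rose as well, from 409 to 482 CPM in old control to 473 to 625 CPM in old anti-miR-mix libraries (sum of 8 genes), and their part in the rise of Lair1 was not tested.

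Against young mice, 5 partner genes were higher in old anti-miR-mix mice and 3 lower (6.76% and 4.05%), where 4.57% of all genes were called higher and 1.63% lower. Higher were Mmp2 (0.65 ± 0.13, SE), Lair1 (0.58 ± 0.08), Mmp14 (0.33 ± 0.09), a membrane-bound collagenase, Sparc (0.34 ± 0.06), a collagen-binding glycoprotein abundant in glia and vessels, and Postn (0.58 ± 0.13), a fibril-binding protein. Lower were Itga10 (−0.55 ± 0.11), Adamts2 (−0.32 ± 0.08), the protease that trims procollagen ends, and Pxdn (−0.20 ± 0.05), the peroxidase that cross-links type IV collagen. All are log2 fold changes with SE, and edgeR adjusted p lay between 0.000132 for Lair1 and 0.0268 for Pxdn. Over the 3 comparisons, 1 of 16 folding genes (Serpinh1) and 1 of 7 cross-linking genes (Pxdn) were called.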

How the data were processed

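RNA from dissected CA1 was sequenced by the study as 50-base single-end reads from TruSeq poly(A) libraries. Per the labels and the methods, the authors checked reads with FastQC 0.11.5, aligned them to mm10 with STAR 2.5.2b and made the deposited counts per gene with featureCounts (Subread 1.5.1). The strand setting is not given in the sources used here. The deposited log2 values, made by the authors from the counts, equal log2(CPM + 1) minus a per-gene slope times a whole number from 1 to 4 per library (largest error 3.4e-08), and that number gave the processing groups. They were used in an alternative only.

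Genes that reached 5 reads in 50% or more of the 19 libraries were tested. These hold 99.95% of all reads. Counts were fitted with edgeR 4.0.16 (R 4.3.3; TMM factors, quasi-likelihood test, all 3 groups in 1 fit), and p-values were adjusted over all genes by Benjamini-Hochberg with a threshold of 0.05. The log2 CPM values use a prior count of 2. Exon lengths (the union of all annotated exons of a gene) and positions come from GENCODE M21 (GRCm38), microRNA and promoter sequences from RefSeq. Alternatives were DESeq2 1.42.0, limma 3.58.1 on the log2 values, other size factors, filters and covariates, only the 2 groups compared, and leaving out each library. The fit was tested on simulated data. Depth was 26653511 to 38908947 reads per library. Libraries were taken as separate animals, as the labels number them, and otherwise the p-values measure only the spread between libraries.

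The members and gene lists were chosen with earlier results of these data known. Named were members past the threshold, the most abundant of each class, the type I, III, IV and VI chains, and the 2 with the lowest p short of the threshold in each comparison. Other members are named for a single value, and those with microRNA matches were chosen after their values were seen. Of 10 choroid plexus markers 8 passed the filter. Old control and young libraries each serve in 2 comparisons, so the comparisons are not independent of each other.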

Additional observations from a re-analysis of the deposited data

Results flagged for a closer look

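Within a group of libraries, 9 of 129 sets of member values held 1 library that stood apart from the rest (Dixon's criterion at 95%), and chance alone gives about 1 in 20. Old control library 2 was the lowest of its group in 4 genes, with 4.28 log2 CPM for Col5a1 (next 5.17), 3.66 for Col6a2 (next 4.29), 2.71 for Col12a1 (next 3.57) and 3.44 for Col23a1 (next 4.42). Old control library 4 was highest for Col6a3 at 3.73 log2 CPM (next 2.54), and old control library 3 lowest for Col1a1 at 1.76 (next 2.44). In young mice, library 5 was highest for Col2a1 at 1.87 log2 CPM (next 1.47) and library 2 for Col25a1 at 6.46 (next 6.08). In old anti-miR-mix mice, library 1 was lowest for Col6a6 at −1.58 log2 CPM (next −0.53). Without old control library 4, the age difference of Col6a3 was 0.56 (edgeR adjusted p = 0.0525).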

How the results depend on the processing

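The count of collagen genes called with age was 3 by edgeR. It was 8 with DESeq2 (6 higher, 2 lower) and 7 with only the 2 groups in the fit (4 higher, 3 lower). Over all genes, these 2 fits called 914 and 772, against 514 in the main fit. The count of collagen genes was 5 (4 higher, 1 lower) with the replicate number as a block. It was 1 with the processing group as a factor, whether or not old control libraries 5 and 6 were merged into 1. Leaving out 1 library gave 1 to 5 calls, with 1 without young 3, young 4 or old control 2, and 5 without young 2, old anti-miR-mix 4 or old anti-miR-mix 6. Between the old groups the count of 0 became 2 with DESeq2, 1 with upper-quartile factors, 1 with the replicate block and 0 to 2 when 1 library was left out, with 2 without old control 3 and 1 without old control 4 or old anti-miR-mix 1 or 6. The count of old anti-miR-mix against young mice, 3, stayed between 2 and 4 under all settings run, with 2 without young 3. No called log2 fold change turned its sign. Over all genes tested, the main fit called 129 between the old groups, and DESeq2 called 267. The main count of 129 became 33 with old control libraries 5 and 6 merged into 1, 9 with the processing group as a factor and 6 with both changes. With age, the main count of 514 became 313, 371 and 225 in the same order. Processing group 3 holds 3 old anti-miR-mix and 0 old control libraries. Replicate numbers are shared between groups, and same-numbered libraries correlated at −0.12 to 0.21 in their deviations from the group means. Old anti-miR-mix libraries 1, 4, 5 and 6 correlated best with the old control library of their own number, and 2 and 3 did not. Old control libraries 1 and 2 correlated best with the young library of their own number, and 3 to 6 did not. The main fit did not take the numbers as pairs. With the number as a block, 249 genes were called between the old groups and 651 with age. The cause of these shifts was not tested, except that the fit of only 2 groups leaves out the spread of the third group. Members with few reads are limited by depth.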
